A study of Mus musculus with 13 samples.

Results

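The contractile apparatus of striated muscle was followed through 53 genes of the sarcomere and of excitation-contraction coupling, chosen by name from the 20054 genes of the count table and each found there in a single row. The choice was made with earlier results of these data known. The 53 genes were compared between 7 dblGATA and 6 WT libraries of whole mouse esophagus by RNA sequencing. Both groups had been given 4-nitroquinoline 1-oxide (4-NQO), a carcinogen, for 8 weeks and after it the vehicle alone, propylene glycol, for 8 weeks, a state labelled pre-cancer. The dblGATA line carries a germline deletion of a palindromic GATA site that controls Gata1 and is used because its eosinophils do not form. The series text names C57/BL6 mice, the dblGATA genotype label names a Jackson Laboratory stock, and whether the strain holds for that stock is not stated. The deletion is present in every cell of the animal and removes no exon of Gata1, so the level of that gene does not check the genotype. Age is not given in the sources used here, and neither is the number of animals per library, so the p-values speak only of spread among libraries, which may be technical.

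The mouse esophagus is wrapped in a coat of striated muscle along nearly its whole length, unlike the human organ, whose lower part is smooth muscle. Within a striated fibre, myosin heavy chains of the thick filament pull on actin of the thin filament when calcium binds troponin and tropomyosin moves aside. Calcium is released through the ryanodine receptor when the surface calcium channel senses a voltage change, and is pumped back by a calcium ATPase. Fast and slow fibres use different isoforms of many of these proteins, and developing fibres use embryonic and perinatal heavy chains.

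Promoter windows were available for 38 of the 53 genes (RefSeq, build GRCm38.p6, 250 bases before to 50 bases after the annotated start). They are shown for a pair of genes that were lower in dblGATA, Myl1, a fast light chain, and Myoz2, a slow-fibre Z-disc protein, and for the perinatal and adult fast heavy chain genes of the chromosome 11 cluster, whose shares are compared further on. Capitals mark the E-box CAGCTG and matches to the MEF2 consensus, the motifs bound by myogenic bHLH factors and by MEF2 factors. The windows are Myl1 at chr1:66945007-66945306 on the minus strand, Myoz2 at chr3:123034938-123035237 on the minus strand, and, on the plus strand, Myh2 at chr11:67170777-67171076, Myh1 at chr11:67199852-67200151, Myh4 at chr11:67237562-67237861 and Myh8 at chr11:67276874-67277173.
Myl1: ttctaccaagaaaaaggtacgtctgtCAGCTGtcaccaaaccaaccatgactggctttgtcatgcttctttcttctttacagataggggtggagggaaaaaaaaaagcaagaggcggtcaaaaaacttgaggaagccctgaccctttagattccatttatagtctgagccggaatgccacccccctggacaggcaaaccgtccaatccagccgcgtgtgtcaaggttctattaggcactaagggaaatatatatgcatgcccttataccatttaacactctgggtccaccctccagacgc
Myoz2: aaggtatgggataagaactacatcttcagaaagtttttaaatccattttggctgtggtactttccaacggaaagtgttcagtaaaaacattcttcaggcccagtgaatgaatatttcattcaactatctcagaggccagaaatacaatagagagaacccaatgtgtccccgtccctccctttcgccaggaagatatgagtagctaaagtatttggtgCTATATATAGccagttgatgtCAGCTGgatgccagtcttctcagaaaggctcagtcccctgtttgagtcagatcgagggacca
Myh2: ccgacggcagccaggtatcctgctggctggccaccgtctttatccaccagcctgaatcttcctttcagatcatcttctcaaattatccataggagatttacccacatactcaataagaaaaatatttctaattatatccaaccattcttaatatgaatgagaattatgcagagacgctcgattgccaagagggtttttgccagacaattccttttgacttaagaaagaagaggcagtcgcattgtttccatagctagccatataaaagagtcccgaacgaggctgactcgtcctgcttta
Myh1: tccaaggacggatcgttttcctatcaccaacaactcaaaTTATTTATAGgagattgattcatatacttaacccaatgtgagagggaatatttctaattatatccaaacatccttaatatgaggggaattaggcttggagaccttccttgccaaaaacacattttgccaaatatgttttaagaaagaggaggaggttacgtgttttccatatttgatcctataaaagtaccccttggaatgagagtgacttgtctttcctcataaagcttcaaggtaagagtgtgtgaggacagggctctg
Myh4: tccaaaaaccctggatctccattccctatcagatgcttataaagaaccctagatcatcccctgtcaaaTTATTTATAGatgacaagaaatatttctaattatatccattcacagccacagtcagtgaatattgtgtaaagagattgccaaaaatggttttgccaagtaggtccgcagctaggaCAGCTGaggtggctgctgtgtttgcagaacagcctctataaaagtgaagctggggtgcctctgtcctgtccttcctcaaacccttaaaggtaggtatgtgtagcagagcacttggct
Myh8: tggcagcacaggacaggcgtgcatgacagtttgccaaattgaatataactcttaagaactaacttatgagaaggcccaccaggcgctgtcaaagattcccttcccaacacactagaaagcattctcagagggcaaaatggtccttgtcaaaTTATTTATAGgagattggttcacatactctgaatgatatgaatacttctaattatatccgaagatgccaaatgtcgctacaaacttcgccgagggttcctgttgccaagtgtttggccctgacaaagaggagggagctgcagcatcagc

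The Myl1 and Myoz2 windows each held a CAGCTG, and Myoz2 also a MEF2 match close to its start. The perinatal Myh8 and the fast Myh1 and Myh4 carried MEF2 matches of identical letters, Myh4 had a CAGCTG as well, and the Myh2 window held neither motif, nor did that of the scarce embryonic Myh3 in the same cluster, which is not shown. On either strand, CAGCTG was present for 19 of 38 genes, against 18.3% of 27025 genes with windows of the same length. It was present for 10 of the 16 genes that were called lower in dblGATA and had a window. A gene with several annotated starts has a window for each and was counted where any of them held the motif. The wider E-box CANNTG, of which CAGCTG is one form, was present for 34 of 38 genes (89.5%), against 75.0% of all genes. A MEF2 match was present for 7 of 38 genes (18.4%), Casq2, Myh1, Myh4, Myh8, Myoz2, Pvalb and Ttn, against 3.7% of all, and TATAAA for 9 of 38 (23.7%), against 15.7%. Among the 16 called genes with a window, CANNTG was present for 15, a MEF2 match for 2 and TATAAA for 1. These are matches of letters and not mapped binding sites.

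Each library held 66.3 to 98.2 × 1e+06 counts, and the 53 genes took 3.73% to 7.35% of the counts in dblGATA libraries and 4.85% to 8.22% in WT libraries. Some libraries stood apart from their groups. The ribosomal RNA gene Rn18s took 10.1% of the counts in WT 4 and 16.9% in WT 6, against at most 3.24% elsewhere. Thyroid markers summed to 14342 CPM (counts per 1e+06 after TMM scaling) in WT 5, against 108 CPM in dblGATA 1, 49.1 CPM in dblGATA 4 and less than 1 CPM elsewhere. Gata1 had 106 counts in WT 3, against 1 to 9 in dblGATA libraries and 3 to 10 in the other WT libraries. Transcripts of the X-linked Xist and the Y-linked Ddx3y, a pair looked at after the values were seen, did not sort the libraries cleanly. Xist had 28 to 698 counts in dblGATA 1 to 5, 39498 in dblGATA 6 and 68163 in dblGATA 7, against 21 in WT 5 and 3087 to 47190 in the other 5 WT libraries. Ddx3y had 421 to 7382 counts in dblGATA libraries, against 0 in WT 6 and 3377 to 7445 in the other WT libraries, so both transcripts were present at over 400 counts in dblGATA 5 to 7 and WT 1 to 4. Sex is not given in the sources used here.

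Sarcomere and excitation-contraction genes were lower in dblGATA esophagus across nearly all roles. Of the 52 that passed the count filter, 20 fell (38.5%), against 6.39% of 16599 genes tested that were lower (edgeR quasi-likelihood test, adjusted p under 0.05). None rose, with 0 at an unadjusted p under 0.05 and 0 by DESeq2 or limma-voom, against 7.1% of all genes. The log2 fold change (dblGATA over WT) was below 0 for 51 of 52 genes (98.1%), against 50.4% of all genes, and the median was -0.53, against -0.00 over all genes. The slow light chain Myl2 did not pass the filter, with 0 to 2 counts in dblGATA libraries and 0 to 9 in WT libraries. The groups overlapped for each of the 52 genes, while 0.711% of all genes tested had every dblGATA library below every WT library. In RNA of a whole organ, fewer muscle cells and less RNA per muscle cell cannot be told apart. Single libraries decided the number of called genes, which was 0 without WT 4 or without WT 6 (38 and 34 lower at an unadjusted p under 0.05), 1 without dblGATA 5 or dblGATA 7, 3 without dblGATA 3 and 4 without WT 1. It was 9 without dblGATA 2 or dblGATA 4, and 36 without dblGATA 1 or without WT 2. Without both WT 4 and WT 6 it was 0, with 25 genes lower at an unadjusted p under 0.05 and a median log2 fold change of -0.43. With the level of Rn18s as a covariate it was also 0, with 37 lower at an unadjusted p under 0.05, while DESeq2 called 33, against 11.2% of 15980 genes lower by that tool, and limma on the authors' normalized values 7. With the log2 level of Xist as a covariate, an alternative chosen after seeing the data, 14 genes were called lower and the median was -0.58. Calls over the whole table swung as well when a library was dropped. With all libraries 1060 genes were lower, against 145 after dropping WT 4 and 135 after dropping WT 6. Dropping dblGATA 5, dblGATA 7 or WT 2 gave 218, 237 and 1900. For these 5 fits the median log2 fold change of the 52 genes was -0.51, -0.48, -0.5, -0.46 and -0.63 in that order.

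**Figure D1:**
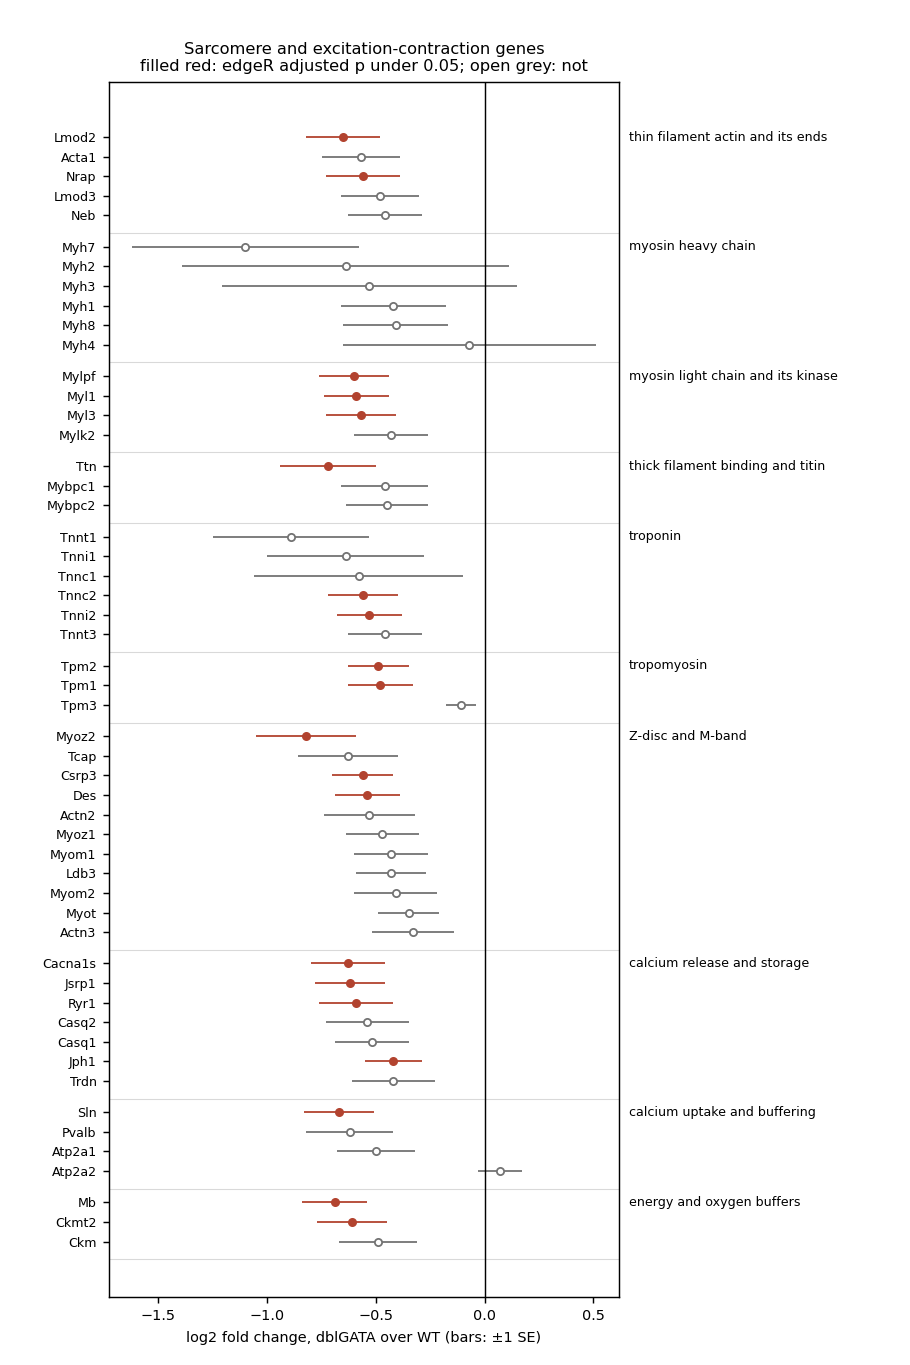
Log2 fold change (x axis, dblGATA over WT) of the 52 tested genes, grouped by role from top to bottom, with bars of ±1 SE; filled red points passed the edgeR adjusted p of 0.05 and open grey points did not. Every point but that of Atp2a2 (0.07) lies left of 0, and the widest bars are those of the heavy chains Myh2, Myh3, Myh4 and Myh7.

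The summed level of the 53 genes was 71848, 46432, 56546, 47166, 41102, 50774 and 35957 CPM in dblGATA 1 to 7, against 82712, 47251, 68923, 74190, 67585 and 86921 CPM in WT 1 to 6. Library dblGATA 1 lay among the WT libraries, WT 2 lay among the dblGATA libraries, and the other 6 dblGATA libraries were below the other 5 WT libraries. The median log2 level over the 52 genes, relative to the WT mean, followed the same pattern. It was -0.02, -0.54, -0.37, -0.58, -0.75, -0.38 and -0.94 in dblGATA 1 to 7, against 0.25, -0.54, -0.05, 0.11, -0.06 and 0.28 in WT 1 to 6. Not every gene did so: WT 2 had 1178 CPM of Myl1, 473 CPM of Sln and 2400 CPM of Mb, each above some other WT libraries. Library dblGATA 7 was the lowest of all 13 for 38 of the 52 genes and dblGATA 3 for 8. The highest library was WT 6 for 23 genes and WT 1 for 22.

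Among thin filament genes, Lmod2 and Nrap fell, 2 of 5 (edgeR, with 6.39% of all genes lower). Lmod2, leiomodin, which nucleates actin at the pointed end, stood at 120, 70.3, 80.7, 82.3, 75.8, 104 and 70.9 CPM in dblGATA 1 to 7, against 189, 87.2, 150, 122, 107 and 156 CPM in WT 1 to 6. In 5 of 7 dblGATA libraries it was below the lowest WT library, WT 2, and dblGATA 1 and dblGATA 6 overlapped the WT range. It averaged 86.3 ± 18.7 CPM in dblGATA and 135 ± 37.1 CPM in WT (SD, n = 7 and 6), a log2 fold change of -0.65 with an SE of 0.17 (edgeR adjusted p = 0.031). Nrap, a scaffold of growing myofibrils, averaged 361 ± 74.4 CPM in dblGATA and 530 ± 127 CPM in WT, with a log2 fold change of -0.56 (edgeR adjusted p = 0.0434). Skeletal actin itself, Acta1, ranged from 5753 to 11337 CPM (median 7125) in dblGATA and from 7359 to 16132 CPM (median 10771) in WT. Its log2 fold change of -0.57 ± 0.18 lay just outside the threshold (edgeR adjusted p = 0.053). Nebulin, Neb, the ruler of the thin filament, and leiomodin Lmod3 had log2 fold changes of -0.46 and -0.48 and did not pass (edgeR adjusted p = 0.0856 and 0.0864).

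None of the 6 myosin heavy chain genes passed the edgeR threshold, with 0 at an unadjusted p under 0.05 and 0 called by DESeq2 or limma-voom, and the widest ranges within dblGATA of the 52 genes were those of Myh2, Myh3, Myh4 and Myh7. The bulk of heavy chain RNA was assigned to Myh8, the perinatal form, and Myh1, the form of fast IIx fibres. They are related genes of the same cluster, of nearly equal coding length (5811 bases for Myh8 and 5826 for Myh1). How reads shared between heavy chain genes were assigned is not given, so the split among the 6 genes is uncertain. Myh8 stood at 5483, 3121, 5451, 3752, 3251, 3963 and 2535 CPM in dblGATA 1 to 7, against 7108, 2257, 6256, 4439, 6348 and 5037 CPM in WT 1 to 6. The lowest library was WT 2, and 7 of 7 dblGATA libraries were below the WT median. Myh1 stood at 5018, 2784, 3974, 2697, 2437, 2577 and 2051 CPM in dblGATA 1 to 7, against 5845, 2140, 5111, 3422, 4323 and 3912 CPM in WT 1 to 6. The groups overlapped widely, with dblGATA 1 above 4 WT libraries. The log2 fold changes were -0.41 ± 0.24 for Myh8 and -0.42 ± 0.24 for Myh1 (SE, edgeR adjusted p = 0.257 and 0.234).

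The IIb heavy chain Myh4 was at 662, 265, 1581, 280, 202, 299 and 101 CPM in dblGATA 1 to 7, against 292, 246, 498, 416, 997 and 605 CPM in WT 1 to 6. Both its highest library, dblGATA 3, and its lowest, dblGATA 7, were dblGATA, a range of 15.6-fold within dblGATA and 4.05-fold within WT. The log2 fold change was -0.07 ± 0.58 (SE, edgeR adjusted p = 0.946), and without dblGATA 3 it was -0.76, still not called. The IIa heavy chain Myh2 was at 17.7, 178, 6.18, 58.7, 90.9, 237 and 25.0 CPM in dblGATA 1 to 7, against 253, 30.4, 213, 144, 106 and 70.0 CPM in WT 1 to 6. It was lowest in dblGATA 3, where Myh4 was highest, and its range was 38.4-fold within dblGATA and 8.32-fold within WT. The difference between the groups was smaller than its own error (log2 fold change -0.64 ± 0.75, SE, edgeR adjusted p = 0.588).

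The slow heavy chain Myh7 and the embryonic Myh3 were scarce. Myh7 stood at 0.478, 2.17, 0.183, 0.483, 1.21, 2.40 and 0.823 CPM in dblGATA 1 to 7, against 4.68, 0.931, 3.07, 1.82, 1.75 and 1.96 CPM in WT 1 to 6. In 4 of 7 dblGATA libraries it was below the lowest WT library, while dblGATA 2 and dblGATA 6 lay above 4 WT libraries. Its log2 fold change of -1.10 ± 0.52 (SE) was the most negative of the 52 genes but did not pass (edgeR adjusted p = 0.161). Myh3 stood at 1.70, 6.63, 0.634, 4.87, 11.7, 13.2 and 1.82 CPM in dblGATA 1 to 7, against 19.1, 1.98, 9.94, 9.29, 5.61 and 3.98 CPM in WT 1 to 6. It was again lowest in dblGATA 3, with a log2 fold change of -0.53 with an SE of 0.68 (edgeR adjusted p = 0.62).

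As a share of the counts of the 6 heavy chain genes, the mixture was close between the groups. Myh8 made up 52.4% ± 3.06 in dblGATA and 51.9% ± 1.92 in WT, and Myh1 40.7% ± 3.56 in dblGATA and 41.5% ± 3.05 in WT (SD, n = 7 and 6). Myh4 made up 5.47% ± 4.08 in dblGATA and 5.20% ± 2.11 in WT, and Myh2 1.32% ± 1.30 in dblGATA and 1.27% ± 0.568 in WT. Library dblGATA 3 was unlike the rest, with 14.4% Myh4 and 0.0561% Myh2, while dblGATA 6 had 3.34% Myh2, above all other libraries.

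**Figure D2:**
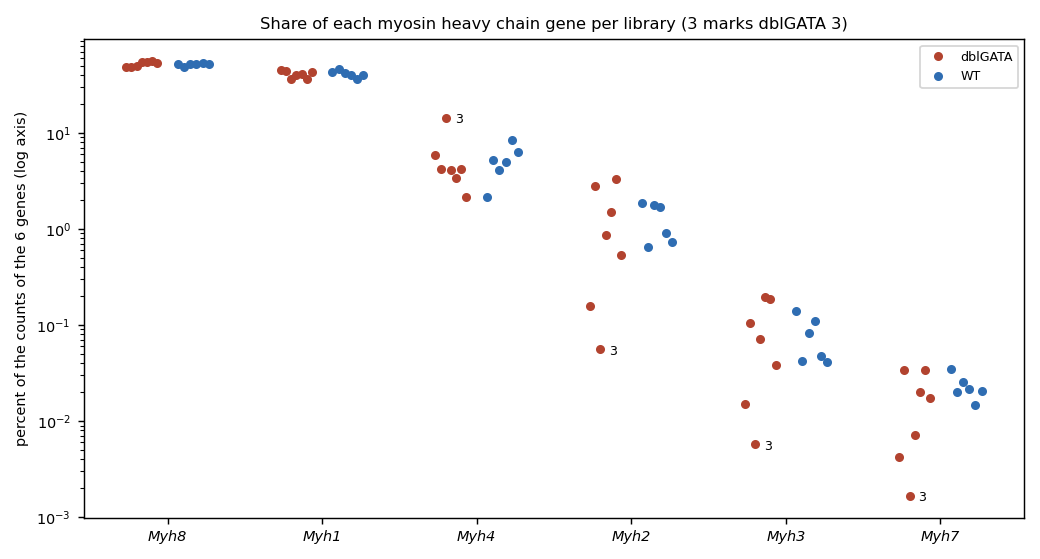
Share of each heavy chain gene in the summed counts of the 6 genes, in percent on a log axis; each point is a library, dblGATA (red) left of WT (blue), with dblGATA 3 marked 3 where it is an extreme. Myh8 and Myh1 are tight at about the same shares in both groups, whereas Myh2, Myh3 and Myh7 scatter more among the dblGATA libraries than among the WT libraries.

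The light chains moved more evenly than the heavy chains. Of 4 tested genes of this group, Myl1, Mylpf and Myl3 fell (edgeR, with 6.39% of all genes lower). The skeletal light chain kinase Mylk2 did not pass (-0.43, edgeR adjusted p = 0.107). Myl1, the alkali light chain of fast fibres, stood at 1212, 722, 834, 889, 771, 912 and 608 CPM in dblGATA 1 to 7, against 1310, 1178, 1085, 1487, 1048 and 1589 CPM in WT 1 to 6. All dblGATA libraries but dblGATA 1 were below the lowest WT library. The log2 fold change was -0.59 ± 0.15 (SE, edgeR adjusted p = 0.0257).

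Mylpf, the regulatory light chain of fast fibres, stood at 1997, 1307, 1307, 1357, 1138, 1409 and 1046 CPM in dblGATA 1 to 7, against 2047, 1774, 1714, 2451, 1654 and 2768 CPM in WT 1 to 6. Here too 6 of 7 dblGATA libraries were below the lowest WT library, with dblGATA 1 inside the WT range. The mean was 1366 ± 306 CPM in dblGATA and 2068 ± 452 CPM in WT (SD, n = 7 and 6), a log2 fold change of -0.60 with an SE of 0.16 (edgeR adjusted p = 0.0292). Myl3, the slow and ventricular alkali light chain, stood at 1760, 1279, 1261, 1242, 1065, 1378 and 965 CPM in dblGATA 1 to 7, against 2167, 1278, 1602, 2208, 1728 and 2388 CPM in WT 1 to 6. It was abundant although it is a slow isoform: per kb of coding length it reached 2089 CPM in dblGATA and 3097 CPM in WT, against 1507 CPM in dblGATA and 2275 CPM in WT for Myl1. Its log2 fold change was -0.57 (edgeR adjusted p = 0.0344).

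Titin, Ttn, the elastic protein that spans from Z-disc to M-band, was lower, and the myosin binding proteins did not pass. Ttn ranged from 863 to 2219 CPM (median 1583) in dblGATA and from 1496 to 3587 CPM (median 2749) in WT. The log2 fold change was -0.72 ± 0.22 (SE, edgeR adjusted p = 0.0445), and 7 of 7 dblGATA libraries were below the WT median. The slow-type Mybpc1 had a log2 fold change of -0.46 and the fast-type Mybpc2 of -0.45 (edgeR adjusted p = 0.13 and 0.122).

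Of 6 troponin genes the fast Tnnc2 and Tnni2 fell (edgeR, with 6.39% of all genes lower), and the slow forms were scarce and uneven. Tnnc2, the calcium sensor of fast fibres, averaged 2029 ± 482 CPM in dblGATA and 2987 ± 547 CPM in WT (SD, n = 7 and 6), a log2 fold change of -0.56 (edgeR adjusted p = 0.0346). Tnni2, the fast inhibitory subunit, averaged 1434 ± 310 CPM in dblGATA and 2077 ± 392 CPM in WT, with a log2 fold change of -0.53 (edgeR adjusted p = 0.035). Tnnt3, the fast tropomyosin-binding subunit, did not pass (-0.46, edgeR adjusted p = 0.0869). Slow troponin T, Tnnt1, ranged from 4.95 CPM in dblGATA 3 to 43.3 CPM in dblGATA 6 (median 19.0), against 30.1 to 56.5 CPM (median 34.3) in WT. It lay below the lowest WT library in 6 of 7 dblGATA libraries, but with 8.76-fold spread within dblGATA its log2 fold change of -0.89 ± 0.36 (SE) did not pass (edgeR adjusted p = 0.111). Slow Tnni1 ranged from 2.34 to 14.5 CPM in dblGATA and from 4.39 to 14.3 CPM in WT, and slow Tnnc1 from 0.256 to 2.48 CPM in dblGATA and from 0.54 to 1.99 CPM in WT, each lowest in dblGATA 3 and highest in dblGATA 6.

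Tropomyosins Tpm1 and Tpm2, the cables that cover the myosin sites on actin, fell, and Tpm3, a slow-fibre form also made by most other cells, did not pass. Tpm1 stood at 3329, 2404, 2475, 2813, 2068, 2695 and 1884 CPM in dblGATA 1 to 7, against 4183, 2466, 3187, 4035, 3146 and 4124 CPM in WT 1 to 6. Only WT 2 among the WT libraries lay within the range of the lower 6 dblGATA libraries. Log2 fold changes were -0.48 ± 0.15 for Tpm1 and -0.49 ± 0.14 for Tpm2 (SE, edgeR adjusted p = 0.049 and 0.0393). Tpm3 stood at 299, 330, 267, 296, 305, 315 and 342 CPM in dblGATA 1 to 7, against 380, 315, 340, 296, 346 and 314 CPM in WT 1 to 6. It varied by 1.28-fold within dblGATA and 1.29-fold within WT, the least of the list apart from Atp2a2 in dblGATA, with a log2 fold change of -0.11 with an SE of 0.07 (edgeR adjusted p = 0.32).

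In the Z-disc and M-band group Csrp3, Des and Myoz2 fell, 3 of 11 (edgeR, with 6.39% of all genes lower). Csrp3, the muscle LIM protein, stood at 411, 284, 282, 319, 251, 347 and 241 CPM in dblGATA 1 to 7, against 483, 329, 414, 533, 417 and 521 CPM in WT 1 to 6. In 5 of 7 dblGATA libraries it was below WT 2, the lowest WT library. Its log2 fold change was -0.56 ± 0.14 (SE, edgeR adjusted p = 0.0243). Des, desmin, the intermediate filament that ties Z-discs together, stood at 2786, 2065, 2029, 2269, 1783, 2231 and 1587 CPM in dblGATA 1 to 7, against 3638, 2176, 2873, 3405, 2544 and 3806 CPM in WT 1 to 6. All 7 dblGATA libraries were below the WT median, and 4 were below the lowest WT library. Des had a log2 fold change of -0.54 (edgeR adjusted p = 0.0332).

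Myoz2, the slow-fibre calsarcin, which binds calcineurin at the Z-disc, had the most negative log2 fold change of the called genes. It stood at 67.2, 73.3, 32.0, 65.9, 79.2, 101 and 53.6 CPM in dblGATA 1 to 7, against 160, 84.0, 113, 133, 84.5 and 141 CPM in WT 1 to 6. Only dblGATA 6 reached the WT range, and dblGATA 3 was the lowest. It averaged 67.5 ± 21.5 CPM in dblGATA and 119 ± 31.0 CPM in WT (SD, n = 7 and 6), a log2 fold change of -0.82 with an SE of 0.23 (edgeR adjusted p = 0.0335). The fast partner Myoz1 did not pass (-0.47, edgeR adjusted p = 0.071). The other Z-disc and M-band genes, Actn2, Actn3, Ldb3, Myom1, Myom2, Myot and Tcap, had log2 fold changes of -0.63 (Tcap, the titin cap) to -0.33 (Actn3, the fast alpha-actinin) and did not pass, with edgeR adjusted p from 0.0741 to 0.237.

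**Figure D3:**
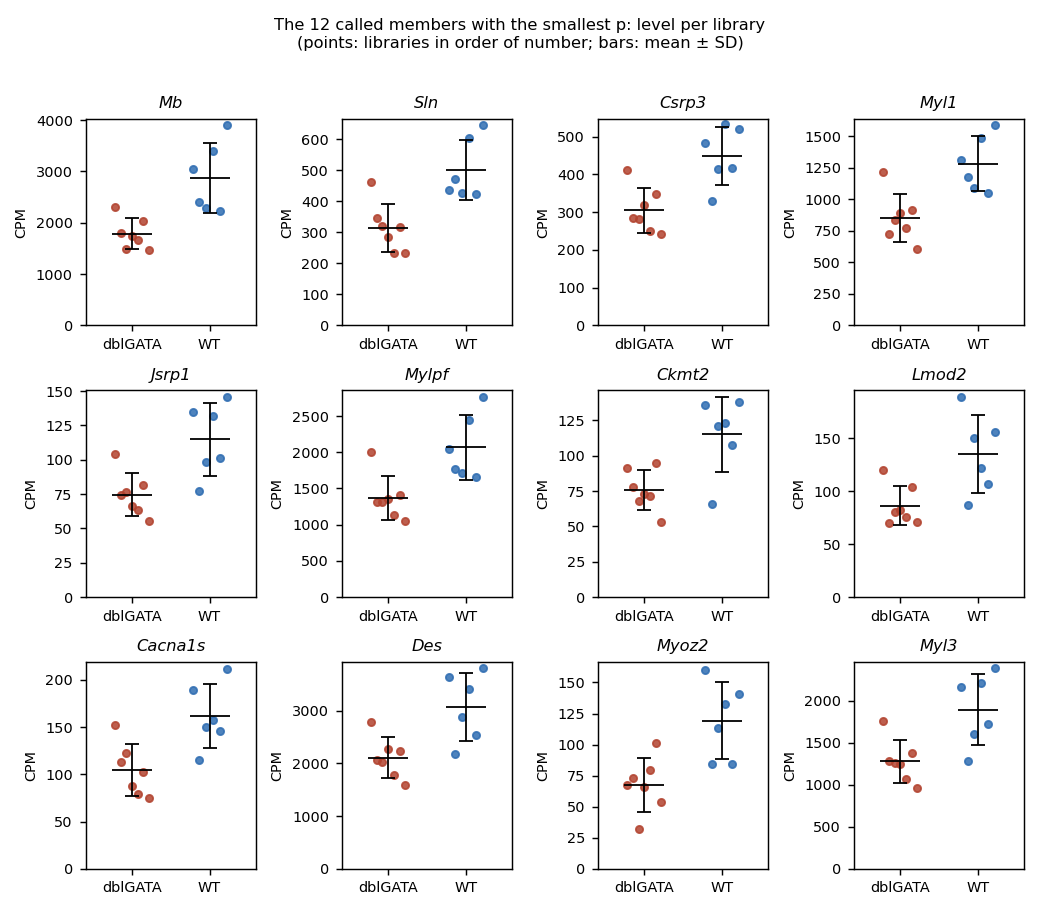
CPM of the 12 called genes with the smallest p, a panel each; points are libraries in order of number, dblGATA (red) left of WT (blue), and bars are mean ± SD. In most panels the high dblGATA point is dblGATA 1, and the Mb panel runs from 1465 to 2301 CPM in dblGATA and from 2225 to 3906 CPM in WT.

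Of the calcium release and storage genes Jsrp1, Cacna1s, Ryr1 and Jph1 fell, 4 of 7 (edgeR, with 6.39% of all genes lower). Jsrp1, a protein of the junctional sarcoplasmic reticulum, stood at 104, 74.7, 76.4, 66.0, 63.1, 81.3 and 55.6 CPM in dblGATA 1 to 7, against 135, 77.4, 98.1, 132, 101 and 146 CPM in WT 1 to 6. Apart from dblGATA 1 and dblGATA 6, the dblGATA libraries were below the lowest WT library. The log2 fold change was -0.62 ± 0.16 (SE, edgeR adjusted p = 0.0273). Cacna1s, the voltage-sensing calcium channel of the surface membrane, stood at 152, 113, 123, 87.6, 78.8, 102 and 74.5 CPM in dblGATA 1 to 7, against 189, 115, 150, 158, 146 and 212 CPM in WT 1 to 6. It was below the lowest WT library in 5 of 7 dblGATA libraries, with a log2 fold change of -0.63 (edgeR adjusted p = 0.0319).

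Ryr1, the calcium release channel that Cacna1s opens, ranged from 249 to 520 CPM (median 343) in dblGATA and from 362 to 685 CPM (median 580) in WT, with a log2 fold change of -0.59 (edgeR adjusted p = 0.037). Jph1, junctophilin, which holds the surface and reticulum membranes together, averaged 61.6 ± 12.2 CPM in dblGATA and 82.5 ± 13 CPM in WT, with a log2 fold change of -0.42 (edgeR adjusted p = 0.0448). The calsequestrins, which store calcium in the reticulum, lay just outside the threshold: the fast Casq1 had a log2 fold change of -0.52 and the slow Casq2 of -0.54 (edgeR adjusted p = 0.0584 and 0.0671). Triadin, Trdn, their anchor, did not pass (-0.42, edgeR adjusted p = 0.138).

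Among calcium uptake and buffering genes Sln fell, 1 of 4 (edgeR, with 6.39% of all genes lower). Sln, sarcolipin, a small inhibitor of the calcium pump, stood at 463, 345, 321, 284, 235, 317 and 234 CPM in dblGATA 1 to 7, against 437, 473, 427, 603, 423 and 646 CPM in WT 1 to 6. In 6 of 7 dblGATA libraries it was below the lowest WT library, and dblGATA 1 lay above 3 WT libraries. It averaged 314 ± 78.4 CPM in dblGATA and 502 ± 97.7 CPM in WT (SD, n = 7 and 6), a log2 fold change of -0.67 with an SE of 0.16 (edgeR adjusted p = 0.0233). Parvalbumin, Pvalb, the calcium buffer of fast fibres, lay just outside the threshold, with 23.2 to 75.3 CPM in dblGATA and 63.7 to 87.3 CPM in WT (log2 fold change -0.62 ± 0.20, SE, edgeR adjusted p = 0.0511).

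Neither calcium pump passed. Atp2a1, the pump of fast fibres, stood at 2855, 1800, 2398, 1564, 1586, 1792 and 1293 CPM in dblGATA 1 to 7, against 2957, 1859, 2740, 2662, 2656 and 3276 CPM in WT 1 to 6. In 5 of 7 dblGATA libraries it was below the lowest WT library, with a log2 fold change of -0.50 with an SE of 0.18 (edgeR adjusted p = 0.0685). Atp2a2, the pump of slow fibres, heart and many non-muscle cells, stood at 371, 361, 396, 372, 401, 338 and 360 CPM in dblGATA 1 to 7, against 408, 260, 418, 344, 372 and 316 CPM in WT 1 to 6. All dblGATA libraries lay within the WT range, and its log2 fold change of 0.07 with an SE of 0.10 (edgeR adjusted p = 0.636) was the only one of the 52 above 0; it was -0.01 without WT 2 and -0.02 with Rn18s as a covariate.

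Mb and Ckmt2 fell among the genes that supply oxygen and energy, 2 of 3 (edgeR, with 6.39% of all genes lower). Mb, myoglobin, the oxygen store of muscle, had the smallest p of the 52 genes. It stood at 2301, 1797, 1495, 1742, 1671, 2037 and 1465 CPM in dblGATA 1 to 7, against 3040, 2400, 2284, 3390, 2225 and 3906 CPM in WT 1 to 6. Only dblGATA 1 reached the WT range, above WT 3 and WT 5. It averaged 1787 ± 298 CPM in dblGATA and 2874 ± 686 CPM in WT (SD, n = 7 and 6), a log2 fold change of -0.69 with an SE of 0.15 (edgeR adjusted p = 0.0196). Mb kept its call in 11 of 13 fits that left out a library, and had an adjusted p of at most 0.0517 without WT 4 or WT 6.

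Ckmt2, the mitochondrial creatine kinase of muscle, stood at 91.2, 77.8, 68.1, 73.0, 71.5, 95 and 53.1 CPM in dblGATA 1 to 7, against 136, 66.1, 121, 123, 108 and 138 CPM in WT 1 to 6. All dblGATA libraries were below the WT libraries other than WT 2. Its log2 fold change was -0.61 (edgeR adjusted p = 0.0295). Cytosolic creatine kinase, Ckm, ranged from 2566 to 5473 CPM (median 3223) in dblGATA and from 3239 to 6474 CPM (median 4922) in WT and did not pass (-0.49, edgeR adjusted p = 0.0847).

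Compared per kb of coding length, Acta1 was highest, at 6751 CPM per kb in dblGATA and 10036 CPM per kb in WT. This scale is only a rough correction for gene size, since coding length leaves out the untranslated parts of a transcript. Tnnt3 followed in dblGATA at 4354 CPM per kb, against 5974 CPM per kb in WT, close to Tnnc2 at 4227 CPM per kb in dblGATA and 6222 CPM per kb in WT. The small genes Mb (3868 CPM per kb in dblGATA, 6221 in WT) and Sln (3379 in dblGATA, 5394 in WT) were also among the highest. The rank of Sln rests on division by a coding length of only 93 bases. At the low end of the 52 tested genes were Myh7 at 0.191 CPM per kb in dblGATA and 0.408 in WT, Myh3 at 0.994 in dblGATA and 1.43 in WT, and Tnnc1 at 1.87 in dblGATA and 2.79 in WT. Not all slow isoforms were scarce. Per kb, Myl3 and Mybpc1 were more abundant than Myl1 and Mybpc2 in both groups, with 161 CPM per kb in dblGATA and 223 in WT for Mybpc1, against 107 in dblGATA and 146 in WT for Mybpc2.

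Fast and slow isoform genes did not separate by the direction of change. Of 15 tested genes typed as fast, 4 fell, with a median log2 fold change of -0.50, and of 10 tested genes typed as slow, 2 fell, with a median of -0.57. Of 25 genes shared by both fibre types or not typed, 14 fell (median -0.54), and the 2 developmental heavy chains did not pass (median -0.47). These counts stand beside 6.39% of all genes tested that were lower in edgeR. The balance was then measured within each library as the log2 ratio of 1 gene to its counterpart, for 14 pairs, since such a ratio does not depend on library size. In 12 of them a fast gene was set over a slow gene, while Tpm1 to Tpm3 and Actn3 to Actn2 each hold a gene, Tpm1 and Actn2, that both fibre types share. No pair passed after adjustment over the 14 (exact two-sided permutation test over 1716 splits), and 1 had an unadjusted p under 0.05. A p that misses the threshold does not show that the ratios were alike.

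That pair was Atp2a1 to Atp2a2, whose log2 ratio was 2.95, 2.32, 2.60, 2.07, 1.98, 2.41 and 1.85 in dblGATA 1 to 7, against 2.86, 2.84, 2.71, 2.95, 2.84 and 3.37 in WT 1 to 6. The dblGATA 1 library lay with the WT libraries and the other 6 dblGATA libraries lay below them all. The mean log2 ratio was 2.31 ± 0.38 in dblGATA and 2.93 ± 0.23 in WT (SD, n = 7 and 6), a difference of -0.62 (exact permutation p = 0.00699, 0.0979 adjusted over 14 pairs). It passed without dblGATA 1 (difference -0.72, exact permutation adjusted p = 0.0303) and in no other fit that left out a library.

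The pairs next in order of p were Tpm1 to Tpm3, with a mean log2 ratio of 3.02 ± 0.34 in dblGATA and 3.39 ± 0.32 in WT (SD, n = 7 and 6; exact permutation p = 0.0688, 0.481 adjusted), and Myh1 to Myh7. The slow members of the first pair and of Atp2a1 to Atp2a2 are also made outside muscle. The Myh1 to Myh7 log2 ratio was 11.82 ± 1.61 in dblGATA and 10.87 ± 0.35 in WT (SD, n = 7 and 6; exact permutation p = 0.196, 0.844 adjusted). Its spread was wider in dblGATA, from 10.06 in dblGATA 6 to 14.36 in dblGATA 3, than in WT, from 10.29 to 11.27. Ratios of Tnnt3 to Tnnt1, Tnni2 to Tnni1 and Tnnc2 to Tnnc1 were likewise highest in dblGATA 3, at 9.63, 9.36 and 13.02.

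**Figure D4:**
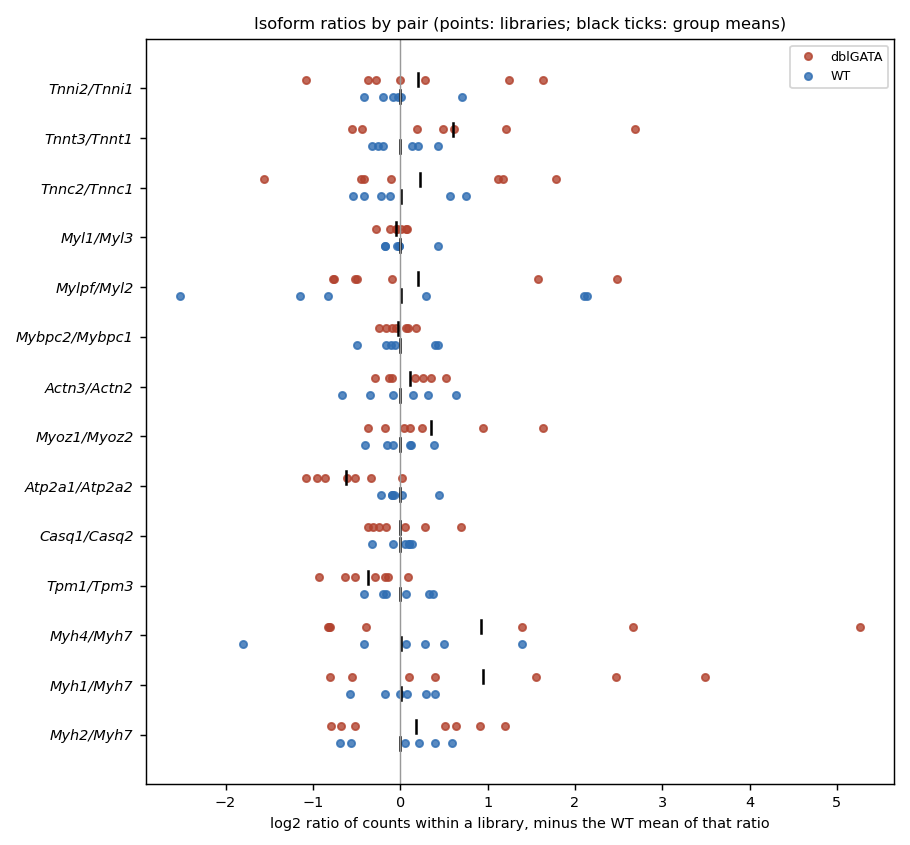
Log2 ratio of each gene to its counterpart within a library, minus the WT mean of that ratio (x axis); each point is a library, dblGATA (red) above WT (blue) in each row, and black ticks are group means. The Atp2a1/Atp2a2 mean lies 0.62 below WT, and the rows of Myh4/Myh7, Myh1/Myh7 and Mylpf/Myl2 have the widest dblGATA spread (SD 2.34, 1.61 and 1.30). The spread of Mylpf/Myl2 is wider still in WT (SD 1.87). That ratio rests on Myl2 counts of 0 to 2 in dblGATA and 0 to 9 in WT.

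Other genes of striated muscle moved the same way, in lists that, like the 53 genes, were chosen with earlier results of these data known. In 5 lists of muscle genes outside the 53 (myogenic regulators, neuromuscular junction, dystrophin and costamere, further sarcomere and coupling genes, muscle metabolism), 32 of 84 tested genes fell (edgeR, with 6.39% of all genes lower), and the median log2 fold change was -0.45. None rose, with 0 at an unadjusted p under 0.05 and 0 by DESeq2 or limma-voom. The number lower was 0 without WT 4 and WT 6, with 42 at an unadjusted p under 0.05. Cox8b, a muscle and heart subunit of cytochrome c oxidase, had the smallest p among them. It ranged from 51.3 to 86.1 CPM in dblGATA and from 94.5 to 162 CPM in WT, so the groups did not overlap, with a log2 fold change of -0.91 with an SE of 0.15 (edgeR adjusted p = 0.0137). The next were Cox7a1, another oxidase subunit, at -0.70, Fabp3, the fatty acid carrier of muscle, at -0.68, and Mef2c, a myogenic transcription factor, at -0.58 (edgeR adjusted p = 0.017, 0.0172 and 0.0189).

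Marker lists of other tissues were read beside these results. Smooth muscle, which shares Des, Tpm1 and Tpm2 with striated muscle, had 0 of 9 markers called by edgeR, DESeq2 or limma-voom and 0 at an unadjusted p under 0.05, and summed to 1457 to 5807 CPM in dblGATA and 1405 to 5085 CPM in WT. Of the cardiac markers Myh6 was at 0 in 6 of 13 libraries, at most 0.0623 CPM in dblGATA and 0.0951 CPM in WT, and 0 of 4 tested markers passed in edgeR, with 1 lower and 1 higher at an unadjusted p under 0.05 and 1 called higher by DESeq2. Squamous epithelium markers moved the other way: 6 of 8 rose (edgeR, with 7.1% of all genes higher). Their sum ran from 35226 to 66611 CPM in dblGATA and from 24755 to 38865 CPM in WT. Without WT 4 and WT 6, or with the Rn18s covariate, 0 genes of the whole table were called, these markers included. The adipocyte markers, 0 of 6 called by edgeR, DESeq2 or limma-voom and 2 lower at an unadjusted p under 0.05, summed to 102 to 466 CPM in dblGATA and 212 to 633 CPM in WT. Fibroblast markers, 0 of 5 called by the same tools and 0 at an unadjusted p under 0.05, summed to 1151 to 1603 CPM in dblGATA and 1367 to 1680 CPM in WT. The log2 fold change was below 0 for 6 of 6 adipocyte, 9 of 9 smooth muscle, 3 of 5 fibroblast, 2 of 4 cardiac and 0 of 8 epithelial markers. The medians were -0.80, -0.19, -0.10, -0.11 and 0.53 in that order, against -0.53 for the 52 genes. The part of epithelial or other tissue content in the lower sarcomere genes was not tested.

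In the authors' deposited table, 29 of the 53 genes were lower at an adjusted p under 0.05 and none was higher, where 8.63% of 17082 genes with an adjusted p were lower. In the authors' deposited pathway table, Calcium Signaling had a -log10 p of 6.2 and an activation z score of -2.263, and 13 of its 54 listed molecules were among the 53 genes. Dilated Cardiomyopathy Signaling in the authors' deposited pathway table had a -log10 p of 5.3 and a z score of 1.134, and 9 of its 39 molecules were among them.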

How the data were processed

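RNA sequencing of whole esophagus was deposited as a table of 20054 genes by 13 libraries, made from stranded poly-A libraries with a mean RIN of 8.8 per the labels' protocols, with build, aligner and counter not given in the sources used here. The deposited count columns hold whole numbers, read here as rounded estimated counts: across 13122 genes whose counts reached 100 in all libraries, 27.0% had a ratio of normalized to raw value over 10% from the library's median in some library. The deposited normalized signal is the authors' own, and the submitters' processing notes name DESeq2 1.34.0. The authors' table also gives a log2 fold change, a test score and p-values, and their pathway table a deposited -log10 p, a fraction of molecules and a z score.

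Counts were tested with edgeR 4.0.16 in R 4.3.3: genes kept by filterByExpr (minimum count 10, total 15), TMM scaling, robust quasi-likelihood test of dblGATA over WT, Benjamini-Hochberg adjustment over all 16599 genes tested, threshold 0.05. Alternatives used DESeq2 1.42.0 and limma 3.58.1. The SE is the log2 fold change divided by the square root of F. CPM is per 1e+06 counts after TMM scaling, and CPM per kb uses the longest coding sequence of GENCODE M21. Isoform ratios were log2 of counts plus 0.5, compared by an exact two-sided permutation test. Scripts were tested on simulated data, and tables and plots were made with Python 3.11.15, pandas 2.3.3, scipy 1.17.1 and matplotlib 3.10.9. Depths of 66.3 to 98.2 in units of 1e+06 counts set the limit that a count of 0 allows (3 counts) at 0.0306 to 0.0452 CPM, for counting error only. The members and lists were chosen with earlier results of these data known. Library values are printed for the 12 called genes with the smallest p, for the heavy chains and for the pairs with the smallest p; outside the members, 4 called genes of the wider lists are named, and any others were chosen after their values were seen.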

Additional observations from a re-analysis of the deposited data

Results flagged for a closer look

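In 132 groups of values (each tested gene and each isoform ratio, in dblGATA and in WT), 9 had 1 library further from its neighbour than Dixon's 95% limit allows; chance gives about 1 in 20. No cause was tested for any of them.

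Of the 5 in dblGATA, 3 came from dblGATA 1, the library that lay among the WT libraries. It had 11337 CPM of Acta1, with the next dblGATA library at 7963 CPM, 1997 CPM of Mylpf, with the next at 1409 CPM, and 3005 CPM of Tnnc2, with the next at 2178 CPM. The others were the fast heavy chain Myh4, at 1581 CPM in dblGATA 3 and 662 CPM in the next library, and the slow troponin Tnnc1, at 2.48 CPM in dblGATA 6 and 1.07 CPM in the next.

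In WT, WT 2 was low for a pair of Z-disc genes, with 211 CPM of Myot (next lowest 328 CPM) and 326 CPM of Ldb3 (next lowest 574 CPM). The log2 ratio of Myl1 to Myl3 was -0.12 in WT 2, against -0.56 in the next WT library. The log2 ratio of Atp2a1 to Atp2a2 was 3.37 in WT 6, against 2.95 in the next.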

How the results depend on the processing

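Against 20 of the 53 genes called lower by edgeR, DESeq2 called 33, limma on the authors' normalized signal 7 and the fit with the replicate block 8. The count was 0 without WT 4 and WT 6 and 0 with the Rn18s covariate (edgeR, with 25 and 37 lower at an unadjusted p under 0.05), and from 0 to 36 when 1 library was left out. The count over all genes, 2239, was 3603 by DESeq2, 868 with the replicate block, 1241 on the normalized signal and 1471 with the Xist covariate. It was 0 without WT 4 and WT 6 and 0 with the Rn18s covariate (edgeR, with 3542 and 3912 at an unadjusted p under 0.05), and 357 to 3828 when 1 library was left out. The 32 wider muscle genes lower were 49 by DESeq2, 17 with the block and 14 on the normalized signal. They were 0 without WT 4 and WT 6 and 0 with the Rn18s covariate (edgeR, with 42 and 57 at an unadjusted p under 0.05), and 3 to 67 when 1 library was left out. The number of isoform pairs past the threshold was 0 to 1 when 1 library was left out. The cause was not tested.

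The number of the 53 genes called lower stayed within 1.5 times of 20 by limma-voom, RLE and upper-quartile scaling, TMM without muscle genes, other count filters and the Xist covariate. The number called higher was 0 in each of these fits, and the median log2 fold change kept its sign, between -0.63 and -0.43. Upper-quartile scaling moved the calls over all genes to 830 higher and 1299 lower (61.0% lower, against 47.3%).

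Reversed in sign were Atp2a2 with the Rn18s covariate (-0.02), the ratio of Mylpf to Myl2 with an added constant of 5 (-0.06) and on the normalized signal (-0.11), Casq1 to Casq2 on the normalized signal (0.08) and with the block (0.05), Myh2 to Myh7 on the normalized signal (-0.10), and Mybpc2 to Mybpc1 without WT 4 and WT 6 (0.06). With 1 library left out, the ranges that crossed 0 were -0.01 to 0.13 for Atp2a2, -0.76 to 0.24 for Myh4, -0.02 to 0.24 for Actn3 to Actn2, -0.13 to 0.05 for Casq1 to Casq2 and for Mybpc2 to Mybpc1, -0.08 to 0.04 for Myl1 to Myl3, -0.31 to 0.62 for Mylpf to Myl2, -0.04 to 0.51 for Tnnc2 to Tnnc1 and -0.03 to 0.42 for Tnni2 to Tnni1. None of these was called.

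Libraries share replicate numbers, but same-numbered libraries deviated together with correlations of -0.14 to 0.14, and 1 of 6 dblGATA libraries matched its own number best, so the numbers are not taken as a pairing. Of the called genes, Mb kept its call in 11 of 13 fits that left out a library, Sln in 9, Csrp3 and Myl1 in 8, and Tpm1, Nrap and Ttn in 2. At this depth Myl2, Myh7 and Tnnc1 rest on few counts.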

Other observations

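Some genes of muscle differentiation and of the postsynaptic side of the neuromuscular junction also fell in dblGATA esophagus, and with WT 4 and WT 6 left out 0 of 84 genes of the wider lists passed (edgeR, with 42 lower at an unadjusted p under 0.05). Apart from Mef2c, Cox8b, Cox7a1 and Fabp3, the genes named here were chosen after their values were seen. The counts of each list below stand beside 6.39% of all genes tested that were lower in edgeR. Of 13 tested myogenic regulators 6 fell (median log2 fold change -0.46). Myog, the differentiation factor, averaged 8.25 ± 1.44 CPM in dblGATA and 11.9 ± 2.67 CPM in WT (SD, n = 7 and 6), a log2 fold change of -0.53 (edgeR adjusted p = 0.0418). Myf6, its relative in mature fibres, averaged 34.8 ± 7.39 CPM in dblGATA and 47.8 ± 7.13 CPM in WT (-0.46, edgeR adjusted p = 0.0382). The homeodomain factor Six4 fell by 0.59 on the log2 scale (edgeR adjusted p = 0.0222), and Mef2d by 0.24 (edgeR adjusted p = 0.0472). Pax7, the marker of muscle stem cells, averaged 1.36 ± 0.354 CPM in dblGATA and 1.84 ± 0.457 CPM in WT and did not pass (-0.43, edgeR adjusted p = 0.155), and neither did Myod1 (-0.51, edgeR adjusted p = 0.0559). Mef2a was nearly level, at 111 ± 7.63 CPM in dblGATA and 113 ± 7.51 CPM in WT (-0.04, edgeR adjusted p = 0.704).

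At the neuromuscular junction 5 of 11 genes fell (median -0.46). Musk, the receptor kinase that organises the postsynaptic membrane, averaged 12.1 ± 1.28 CPM in dblGATA and 15.9 ± 1.91 CPM in WT (-0.39, edgeR adjusted p = 0.0206). Its adaptor Dok7 had a log2 fold change of -0.46, the receptor anchor Rapsn of -0.52 and the acetylcholine receptor subunits Chrna1 and Chrnd of -0.52 and -0.65 (edgeR adjusted p = 0.0214, 0.0233, 0.029 and 0.0402). Lrp4, the agrin receptor, did not pass (-0.08, edgeR adjusted p = 0.591). Of 21 dystrophin and costamere genes 7 fell (median -0.44), among them caveolin Cav3, at 32.9 ± 5.53 CPM in dblGATA and 50.3 ± 12.8 CPM in WT (-0.61, edgeR adjusted p = 0.0245). Dystrophin itself, Dmd, did not pass (-0.44, edgeR adjusted p = 0.0794), and neither did its broadly made relative Utrn (-0.11, edgeR adjusted p = 0.417).

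Of 23 further sarcomere and coupling genes 7 fell (median -0.49), among them Srl, sarcalumenin of the sarcoplasmic reticulum, at 262 ± 52.2 CPM in dblGATA and 375 ± 71 CPM in WT (-0.52, edgeR adjusted p = 0.0335). Of 16 muscle metabolism genes 7 fell (median -0.46), including the oxidase subunit Cox6a2 (-0.66, edgeR adjusted p = 0.0285) and Ppargc1a, a regulator of mitochondrial genes (-0.48, edgeR adjusted p = 0.0341). The glycolytic genes Pygm and Pfkm each had a log2 fold change of -0.46 and did not pass (edgeR adjusted p = 0.159 and 0.122). These counts rest on the same libraries as those of the 53 genes.

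The cardiac troponin Tnnt2 averaged 27.7 ± 14.5 CPM in dblGATA and 48.9 ± 21.9 CPM in WT (-0.82, edgeR adjusted p = 0.149), and cardiac actin Actc1 336 ± 126 CPM in dblGATA and 399 ± 97.3 CPM in WT (-0.25, edgeR adjusted p = 0.483). Of 4 Schwann cell markers S100b fell (-0.78, edgeR adjusted p = 0.0473), and of 3 thyroid markers 1 was tested and did not pass (edgeR adjusted p = 0.16).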
